A study of Homo sapiens with 5 samples.

Results

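The genes described are those that carry glucose carbon from the plasma membrane to the tricarboxylic acid (TCA) cycle: glucose transporters, glycolytic enzymes, lactate dehydrogenases, the mitochondrial pyruvate carrier, the pyruvate dehydrogenase complex with its regulators, and the enzymes of the cycle. They were chosen by gene symbol, 53 genes in all, with the values of this same comparison known, so their levels and fold changes are given as a description. Of the 53 genes, 50 were listed among the 13822 genes of the expression table, and 49 passed the filter on low values. SLC2A3, PGAM2 and SLC16A3 were not listed, and PFKFB2, at a mean of 0.0781 FPKM in si-SCR, did not pass.

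RH4 is an established alveolar rhabdomyosarcoma line, a tumour of skeletal muscle lineage. The cells were transfected at 30 nM with a control siRNA (si-SCR, 3 libraries) or with an siRNA against circVAMP3 (si-circVAMP3, 2 libraries). By the study's general protocol, medium was changed at 24 h and harvest followed 24 h later, in both groups. CircVAMP3 is a circular RNA made from exons 3 and 4 of VAMP3, and poly-A selected libraries are not made to capture it. Values are FPKM, fragments scaled by gene length and library size. Whole fragment counts worked back from them came to at least 26064850, 24694435 and 24583875 fragments in the si-SCR libraries, and to at least 18358442 and 28401864 in si-circVAMP3 replicates 1 and 2.

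In glycolysis, glucose is phosphorylated and split to pyruvate in the cytosol, and lactate dehydrogenase can turn pyruvate to lactate. To be oxidised, pyruvate must cross the inner mitochondrial membrane through a carrier built from MPC1 and MPC2, which work as a heterodimer. Pyruvate dehydrogenase then makes acetyl-CoA, which citrate synthase joins to oxaloacetate to open the TCA cycle. Proliferating tumour cells are known for high glycolysis.

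The siRNA is shown because several members share a short stretch with it. In the listed strand, capitals mark the bases from the start of exon 3 (chr1:7777160-7777318), and the lower-case bases before them are the end of exon 4 (chr1:7778118-7778169, both + strand, GRCh38). It thus spans the back-splice junction with 8 bases of exon 4 and 11 of exon 3, followed by an overhang. Which strand is loaded is not stated. In the complementary strand, capitals mark bases 2 to 8, the seed if this strand is the one loaded.
si-circVAMP3, listed strand: caucaucgGUGGUGGACAUuu
complementary strand: aUGUCCACcaccgaugaug

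VAMP3, the host gene and a vesicle SNARE, was measured as its linear mRNA. Its level was 36.4, 35.4 and 37.4 FPKM in the si-SCR libraries and 29.4 and 30.2 FPKM in the si-circVAMP3 libraries. Linear VAMP3 was lower in both si-circVAMP3 libraries than in every si-SCR library, with a log2 fold change of -0.29 ± 0.04 (SE, on the log2(FPKM + 0.5) scale used throughout) and an adjusted p of 0.00502 by limma with Benjamini-Hochberg adjustment. The call was lost without si-circVAMP3 replicate 1, at -0.27. The circular form itself was not measured here.

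The cells carried the markers of their label. MYOD1, the myogenic regulator, had a mean of 101.6 ± 15.7 FPKM (SD, n = 3) in si-SCR and 116.1 ± 14.8 (SD, n = 2) in si-circVAMP3. All 10 alveolar rhabdomyosarcoma markers were listed. Of these, MYOG, CHRNG and FOXO1 were called lower and none was called higher. MYOG, a later myogenic factor, stood at 175.4, 178.6 and 149.0 FPKM in si-SCR and at 100.7 and 96.6 FPKM in si-circVAMP3. Summed over the list, these markers came to 1033, 1018 and 872 FPKM in si-SCR and to 831 and 849 FPKM in si-circVAMP3, and the part of this shift in the metabolic genes was not tested. Among markers of other cells, 1 of 6 epithelial genes was listed, 0 of 5 immune genes, 1 of 4 endothelial genes and 3 of 5 fibroblast genes, none above 1 FPKM. The epithelial gene, the keratin KRT8, was at 0.32, 0.22 and 0.26 FPKM in si-SCR and at 0.65 and 0.58 FPKM in si-circVAMP3. It was called higher (log2 fold change 0.55 ± 0.10), but passed the filter on low values only through the si-circVAMP3 libraries. Nothing is read from this call, since the difference itself admitted the gene to the test. The part of this difference in the metabolic genes was not tested. In bulk RNA, fewer cells of a kind and less RNA per cell cannot be told apart.

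Of the 49 members tested, 17 were called at an adjusted p under 0.05, 7 lower and 10 higher in si-circVAMP3. Over all 12423 genes tested the same rule called 30.2%, with 15.8% lower and 14.4% higher, and nothing is read from the members' count because this contrast served to choose them. The libraries of the groups did not overlap for 33 members, 20 higher and 13 lower, where over all genes 29.4% were higher in this way and 29.0% lower. The median log2 fold change was 0.03 over the members and 0.01 over all genes tested. The 7 members called lower were MPC2, CS, OGDH, HK1, TPI1, IDH2 and DLD, from -1.47 to -0.16. The 10 called higher ranged from 0.14 to 0.50, and the 32 others lay between -0.21 and 0.25.

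**Figure D1:**
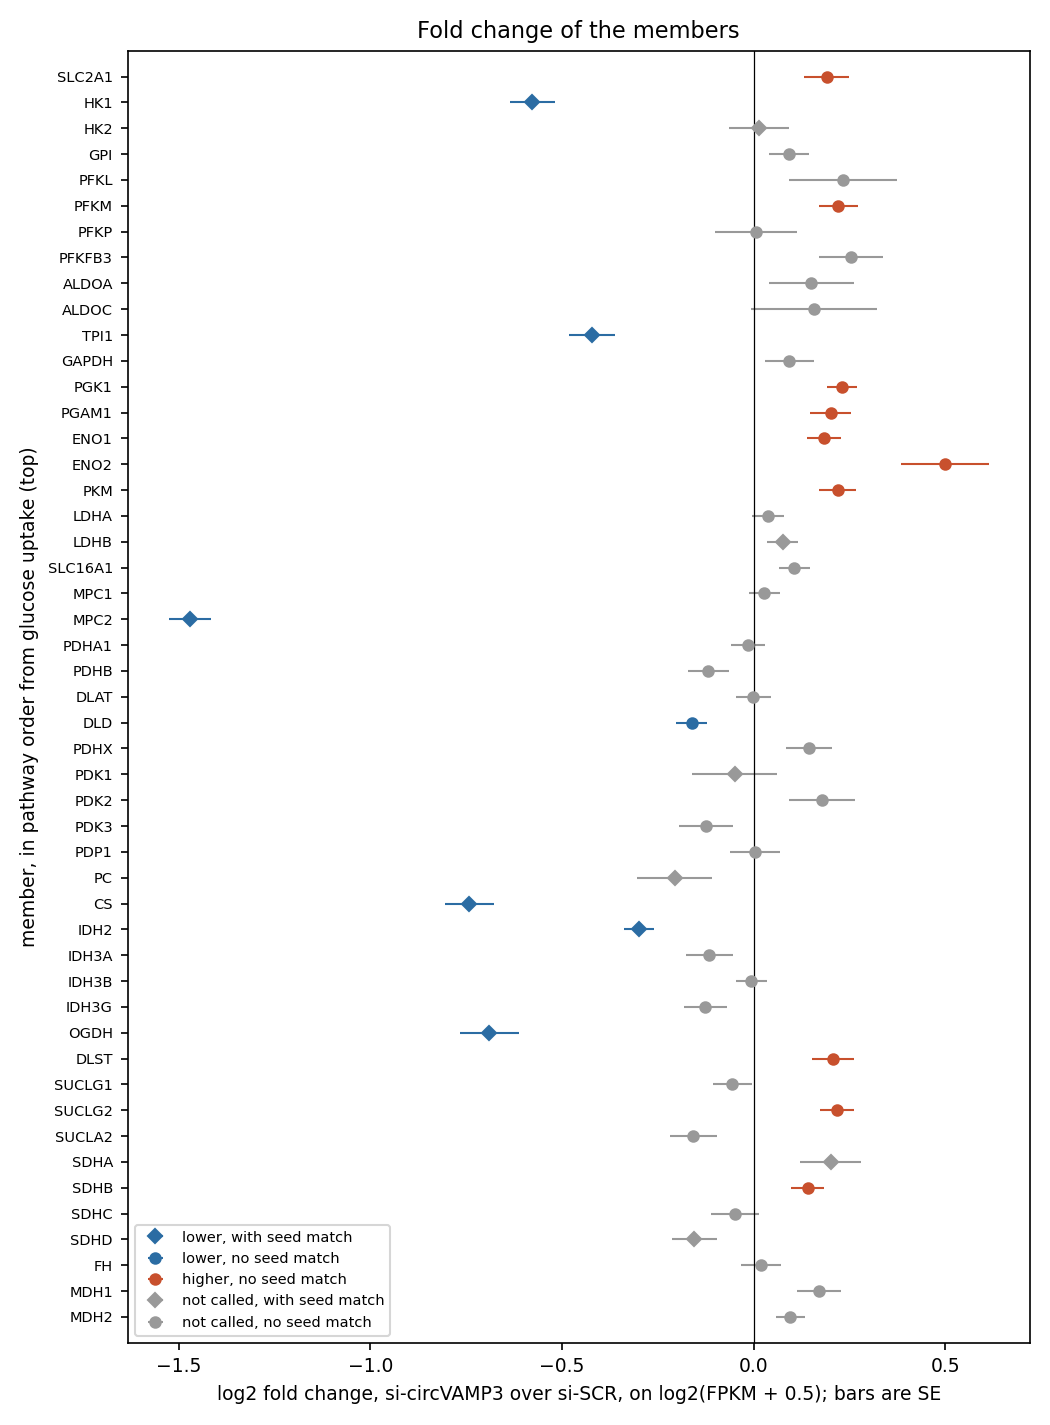
Log2 fold change of si-circVAMP3 over si-SCR for the 49 members tested, in pathway order from glucose uptake at the top, with SE as bars. Colour gives the call and diamonds mark members whose transcript holds the seed match. MPC2 stands apart on the left at -1.47.

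The pyruvate carrier showed the widest gap between partners. MPC2 (ENSG00000143158, chr1:167916675-167937072, - strand) was at 10.6, 10.5 and 10.9 FPKM in the si-SCR libraries and at 3.42 and 3.66 FPKM in the si-circVAMP3 libraries. Its mean was 66.9% lower in si-circVAMP3, and its log2 fold change was -1.47 ± 0.06 (SE), the 8th lowest of the 12423 genes tested. MPC1 (ENSG00000060762, chr6:166364919-166383013, - strand) was at 36.0, 35.2 and 36.1 FPKM in si-SCR and at 35.8 and 37.2 FPKM in si-circVAMP3. The groups overlapped for MPC1, with a log2 fold change of 0.03 ± 0.04 (SE).

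**Figure D2:**
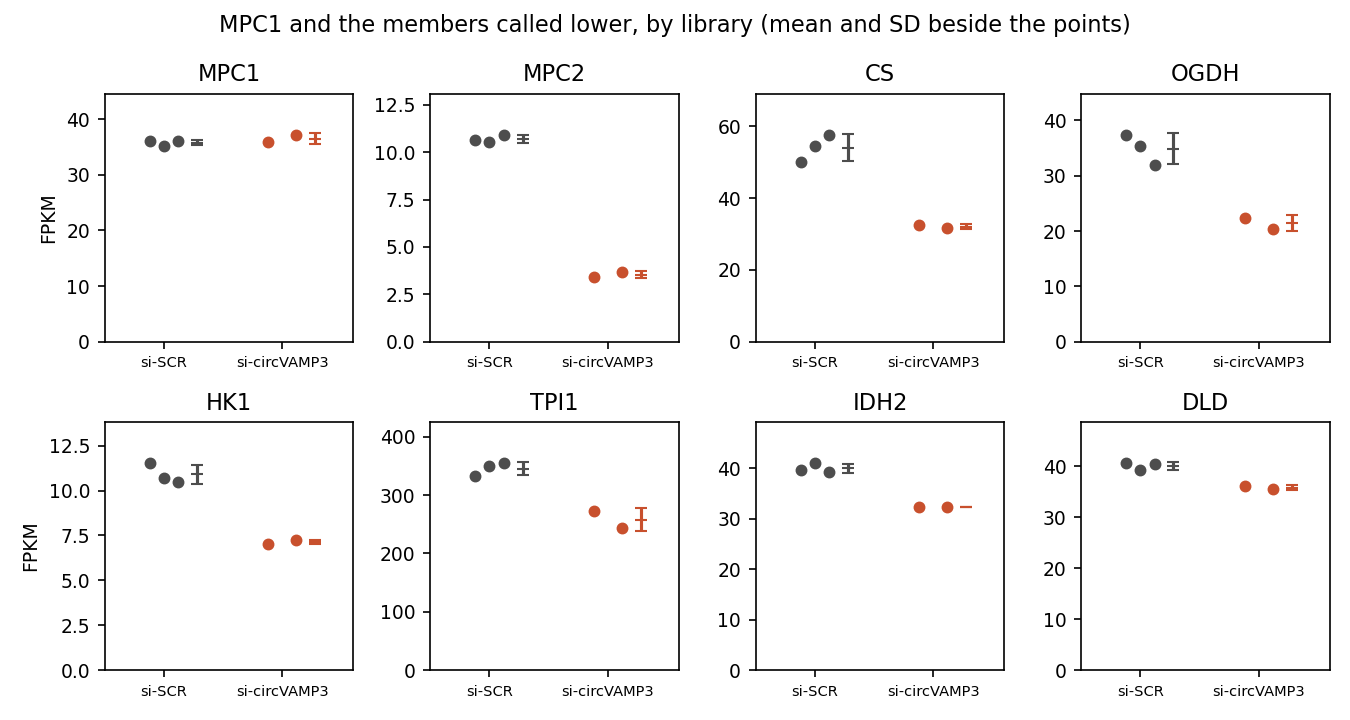
FPKM in each library for MPC1 and the 7 members called lower, with the mean and SD beside the points and the vertical axis from 0. MPC2 lies near 10.7 in si-SCR and 3.54 in si-circVAMP3, while MPC1 overlaps between the groups.

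The glucose transporter was called higher and a hexokinase lower. SLC2A1, the GLUT1 transporter, was at 17.7, 17.3 and 15.9 FPKM in si-SCR and at 19.7 and 19.0 FPKM in si-circVAMP3. With a log2 fold change of 0.19 ± 0.06 (SE), it was the called member nearest the threshold. Its call was lost with no low-value filter, with a pseudocount of 0.1, without the intensity trend, with the replicate block (0.14), and without si-SCR replicate 2 (0.21) or 3 (0.14). HK1 (ENSG00000156515, chr10:69269984-69401884, + strand), which phosphorylates glucose, was at 11.5, 10.7 and 10.5 FPKM in si-SCR and at 7.04 and 7.23 FPKM in si-circVAMP3, a log2 fold change of -0.58 ± 0.06 (SE). HK2, the other listed hexokinase, had a log2 fold change of 0.01 ± 0.08 (SE). The HK1 share of the summed hexokinase FPKM was 65.9, 66.7 and 67.1% in si-SCR and 54.9 and 57.8% in si-circVAMP3.

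PFKM, the muscle phosphofructokinase, made up 55.9 ± 4.64% (SD, n = 3) of its step in si-SCR and 58.1 ± 0.863% (SD, n = 2) in si-circVAMP3, with overlapping libraries. The difference in share was 2.19 percentage points and ranged from 0.63 to 4.85 with each library left out. ALDOA made up 87.3 ± 0.561% of aldolase in si-SCR and 86.9 ± 4.37% in si-circVAMP3. LDHB made up 51.8 ± 0.338% of lactate dehydrogenase in si-SCR and 52.4 ± 0.125% in si-circVAMP3. The levels of ALDOA and LDHB are uncertain, since 89.8% and 76.5% of their exon bases are shared with another annotated gene on the same strand, where strict intersection counting can drop fragments.

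**Figure D3:**
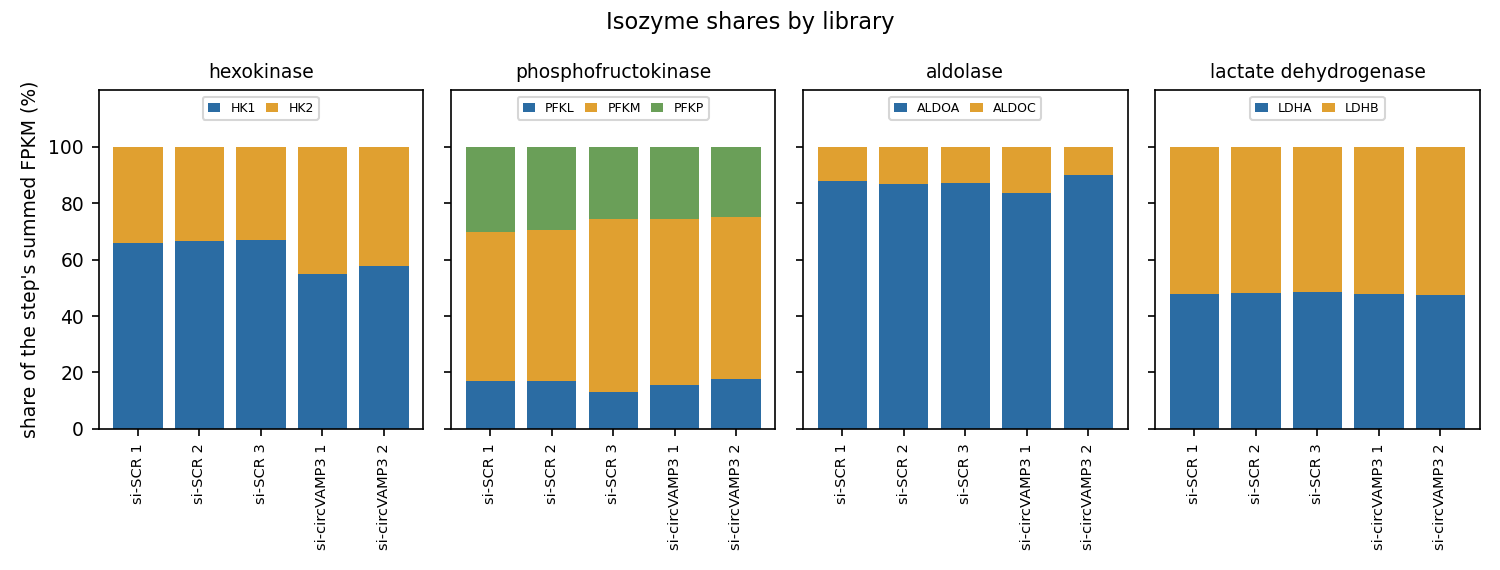
Share of each isozyme in the summed FPKM of its step, in percent, by library, for hexokinase, phosphofructokinase, aldolase and lactate dehydrogenase. HK1 fills 65.9 to 67.1% of hexokinase in si-SCR and 54.9 to 57.8% in si-circVAMP3.

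In the middle of glycolysis, PFKM, which commits sugar to the pathway, was at 20.4, 19.6 and 21.3 FPKM in si-SCR and at 24.4 and 23.4 FPKM in si-circVAMP3, a log2 fold change of 0.22 ± 0.05 (SE), and its call was lost without si-SCR replicate 2 (0.19). PFKFB3, which makes the activator fructose-2,6-bisphosphate, was the member just outside the threshold. Its level was 5.65, 5.77 and 4.96 FPKM in si-SCR and 6.95 and 6.25 FPKM in si-circVAMP3, a log2 fold change of 0.25 ± 0.08 (SE), and it was called higher with median scaling (0.27), quantile normalization (0.27) and voom (0.26). ALDOA, which splits the sugar, was at 28.4, 25.7 and 21.7 FPKM in si-SCR and at 26.4 and 29.7 FPKM in si-circVAMP3, so the groups overlapped. TPI1 (ENSG00000111669), which interconverts the resulting triose phosphates, was called lower. It was at 332, 349 and 354 FPKM in si-SCR and at 272 and 244 FPKM in si-circVAMP3, a log2 fold change of -0.42 ± 0.06 (SE).

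PGK1, an ATP-forming kinase, was at 96.5, 98.4 and 101.4 FPKM in si-SCR and at 116.4 and 115.6 FPKM in si-circVAMP3, a log2 fold change of 0.23 ± 0.04 (SE). PGAM1, the mutase after it, was at 69.9, 71.2 and 70.1 FPKM in si-SCR and at 85.5 and 76.7 FPKM in si-circVAMP3 (0.20 ± 0.05). ENO1, the more abundant of the enolase members, was at 301, 320 and 304 FPKM in si-SCR and 354 and 346 FPKM in si-circVAMP3 (0.18 ± 0.04). ENO2, the neuronal enolase, was low, at 0.508, 0.776 and 0.655 FPKM in si-SCR and 1.15 and 1.08 FPKM in si-circVAMP3, with the highest fold change of the members (0.50 ± 0.12). At this level the value moved with the scale, to 0.36 with a pseudocount of 1, 0.72 with 0.1 and 0.79 with voom. ENO3, the muscle enolase and not a member, was at 16.7 ± 0.493 FPKM (SD, n = 3) in si-SCR and 18.2 ± 1.48 (SD, n = 2) in si-circVAMP3 and was not called. PKM, pyruvate kinase, was at 264, 282 and 257 FPKM in si-SCR and at 312 and 311 FPKM in si-circVAMP3 (0.22 ± 0.05). For PGK1, PGAM1, ENO1, ENO2 and PKM both si-circVAMP3 libraries were above every si-SCR library. Under quantile normalization the log2 fold change was 0.10 for PKM and 0.09 for ENO1, and both calls were lost, as were those of PGAM1 (0.16) and SDHB (0.11). The calls of PGAM1 and ENO1 were also lost without si-SCR replicate 1, without the intensity trend and with the replicate block, that of PGAM1 without si-SCR replicate 2, and that of PKM with the replicate block. LDHB, which interconverts pyruvate and lactate, was at 134, 131 and 135 FPKM in si-SCR and at 143 and 138 FPKM in si-circVAMP3 and was not called.

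From glucose uptake to lactate, 7 of 20 tested members were called higher and 2 lower, beside 14.4% and 15.8% of all genes. Their median log2 fold change was 0.15, and nothing is read from these counts, as for the members as a whole. GAPDH was the most abundant member, at 1357 ± 90.9 FPKM (SD, n = 3) in si-SCR and 1446 ± 18.0 (SD, n = 2) in si-circVAMP3, and was not called. Of the 10 members called higher, 0 were called without si-circVAMP3 replicate 1 and 1, PGAM1, without si-circVAMP3 replicate 2. Their log2 fold changes were then 0.12 to 0.47 and 0.11 to 0.53, and for PGK1 0.23 and 0.24 beside 0.23 with all libraries. With 1 si-circVAMP3 library left, calls over all genes went from 3756 to 1286 and 1254. MPC2, CS, OGDH, HK1, TPI1 and IDH2 were called with each of the 5 libraries left out in turn.

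At the entry of pyruvate carbon, 2 of 12 tested members were called lower and 0 higher, beside 15.8% and 14.4% of all genes. Beside MPC2 this was DLD, the E3 subunit that pyruvate dehydrogenase shares with other dehydrogenases. It was at 40.5, 39.2 and 40.4 FPKM in si-SCR and at 36.1 and 35.4 FPKM in si-circVAMP3, a log2 fold change of -0.16 ± 0.04 (SE), and its call was lost without si-SCR replicate 1 or 2, without si-circVAMP3 replicate 1 or 2, without the intensity trend and with the replicate block. PDP1, the phosphatase that activates pyruvate dehydrogenase, was at 6.85, 6.22 and 6.74 FPKM in si-SCR and at 6.40 and 6.83 FPKM in si-circVAMP3, and the groups overlapped.

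In the TCA cycle 3 of 17 tested members were called lower and 3 higher, beside 15.8% and 14.4% of all genes. CS (ENSG00000062485, chr12:56271699-56300391, - strand), citrate synthase, was at 50.1, 54.4 and 57.6 FPKM in si-SCR and at 32.6 and 31.5 FPKM in si-circVAMP3, a log2 fold change of -0.74 ± 0.06 (SE). OGDH (ENSG00000105953, chr7:44606572-44709066, + strand), the first subunit of 2-oxoglutarate dehydrogenase, was at 37.4, 35.4 and 31.9 FPKM in si-SCR and at 22.4 and 20.4 FPKM in si-circVAMP3 (-0.69 ± 0.08). IDH2, the mitochondrial NADP-dependent isocitrate dehydrogenase, was at 39.6, 41.0 and 39.3 FPKM in si-SCR and at 32.4 FPKM in both si-circVAMP3 libraries (-0.30 ± 0.04). The groups were apart for all 3 genes.

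Of the partner subunits of OGDH, DLD was called lower and DLST higher. DLST, the succinyltransferase of the complex, was at 19.8, 19.8 and 21.2 FPKM in si-SCR and at 24.4 and 22.7 FPKM in si-circVAMP3 (0.21 ± 0.05), and its call was also lost without si-SCR replicate 1 or 2 (0.19 in both) and without the intensity trend. SUCLG2, a succinyl-CoA ligase subunit, was at 18.1, 18.9 and 18.3 FPKM in si-SCR and at 21.9 and 21.1 FPKM in si-circVAMP3 (0.22 ± 0.05). SDHB, the iron-sulphur subunit of succinate dehydrogenase, was at 45.2, 45.2 and 43.6 FPKM in si-SCR and at 48.1 and 50.5 FPKM in si-circVAMP3 (0.14 ± 0.04). The SDHB call was lost with each of the 5 libraries left out (0.11 to 0.18), without the intensity trend, with the replicate block (0.12) and with voom (0.14). MDH2, which regenerates oxaloacetate, was at 105, 109 and 108 FPKM in si-SCR and at 114 and 115 FPKM in si-circVAMP3 and was not called. SDHA and SDHD levels are uncertain, with 69.4% and 23.8% of exon bases shared with another gene on the same strand.

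The motif is GTGGACA, the 7 bases that pair with the seed of the complementary strand, read on the transcript strand of each gene's canonical GENCODE 44 transcript. It was searched after the fold changes had been seen. Gene-level FPKM does not show which isoforms RH4 cells express, so a match may lie outside the expressed isoform. The motif is found in 6 of the 7 members called lower (all but DLD), in 0 of the 10 called higher, and in 6 of the 32 not called. The stretches below, not all that were found, show 30 bases each with the motif in capitals.
MPC2, 3′ UTR, chr1:167918285-167918291, - strand: acaatctagatGTGGACAaaaccattggga
CS, coding, chr12:56285918-56285924, - strand: gccaaatcactGTGGACAtgatgtatggtg
OGDH, coding, chr7:44645462-44645468, + strand: cacagcccaacGTGGACAagctcgtggagg
HK1, coding, chr10:69386337-69386343, + strand: atcttgatcacGTGGACAaagggttttaag
HK1, 3′ UTR, chr10:69401747-69401753, + strand: cgtggggggagGTGGACAgtcctgcggaaa
TPI1, coding, chr12:6870357-6870363, + strand: agcccgaattcGTGGACAtcatcaatgcca
IDH2, coding, chr15:90090623-90090629, - strand: tcctgccccacGTGGACAtccagctaaagt

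HK2, LDHB, PDK1, PC, SDHA and SDHD hold the motif as well and were not called, and MPC1 does not hold it. HK2 has 2 matches, both coding, as does linear VAMP3. A match is a description of these letters and not a site, and whether the siRNA pairs with any of these transcripts was not tested. The median log2 fold change was -0.25 over the 12 tested members with a match and 0.10 over the 37 without.

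Over all 12387 tested genes with a transcript, 29.6% hold the motif, against 24.5% of the members. Its share was 50.3% among genes called lower, 17.4% among genes called higher and 27.5% among genes not called. The median log2 fold change was -0.08 with the motif and 0.03 without it. Transcripts with the motif have a median length of 4283 bases and those without it 2725. In 4 groups by transcript length, the medians with and without the motif were -0.11 and 0.05 at 122 to 1857 bases, -0.08 and 0.05 at 1858 to 3142 bases, -0.06 and 0.03 at 3143 to 5016 bases, and -0.08 and 0.01 above that. Among the 13 windows of 7 bases in the 19 paired bases, this motif had a difference in medians of -0.11, and the 12 others lay from -0.06 to 0.01, of which the lowest overlaps it by 6 bases. CGATGAT, which pairs with the seed of the listed strand, is in 6.43% of genes, with medians of -0.01 with it and 0.01 without. Of the members, HK1, PFKM, PFKP, PDK3 and SUCLA2 hold CGATGAT, of which HK1 was called lower, PFKM higher and the other 3 were not called. These counts and medians are a description and test neither pairing nor transcript length as a cause.

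**Figure D4:**
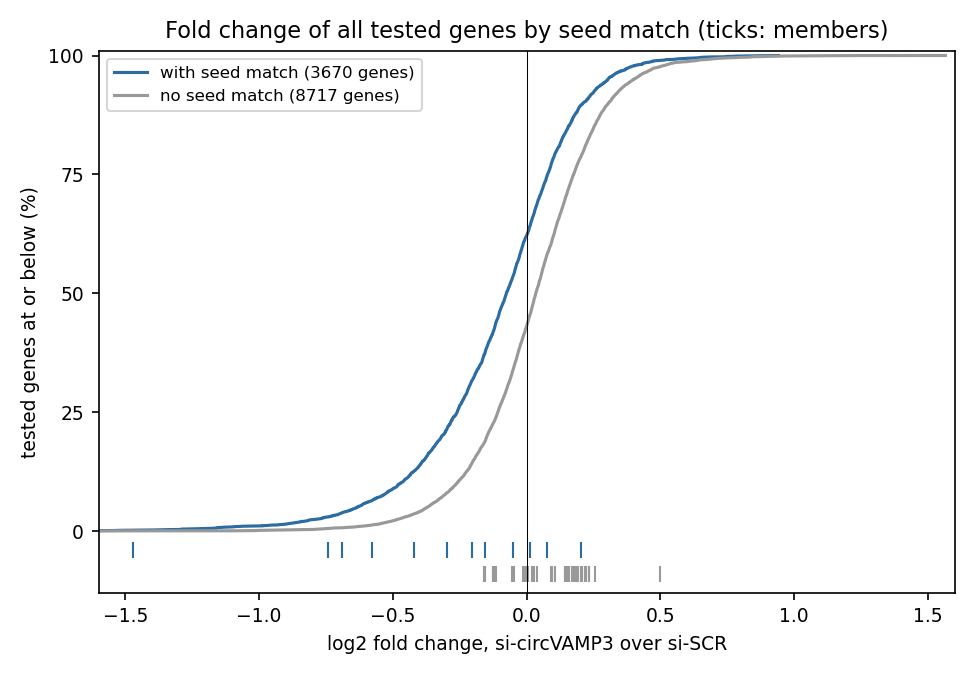
Cumulative share of tested genes, in percent, against log2 fold change, for 3670 genes with and 8717 without the seed match. Ticks at the foot are the members, and the curve of genes with a match lies to the left, with medians of -0.08 and 0.03.

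Genes of adjoining pathways that are not members were read from the same fit. Of 110 such genes 80 were listed and 78 tested, of which 12 were called higher and 15 lower. These counts are 34.6% of the tested neighbours, beside 30.2% of all genes. Over all genes 14.4% were called higher and 15.8% lower, shares that stand beside the counts of each list below. Of the 19 tested neighbours that hold the motif 31.6% were called lower and 15.8% higher, and of the 59 without it 15.3% were called lower and 15.3% higher. The called-higher ones with the motif were VEGFA, TKT and HIF1AN. The adjusted p-values below are from limma with Benjamini-Hochberg adjustment over all 12423 genes.

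The list named glucose sensing also holds regulators of mitochondrial genes, namely PPARGC1A, PPARGC1B, ESRRA, TFAM and NRF1. In this list 2 of 9 tested genes were called higher, TXNIP and TFAM (log2 fold change 0.32 ± 0.04), and 0 lower. The libraries of the groups did not overlap for 8 of the 9, 5 higher and 3 lower (PPARGC1A, PPARGC1B and NRF1). Over all genes 29.4% were higher in this way and 29.0% lower. TXNIP, an inhibitor of glucose uptake that responds to glucose, was at 15.0, 13.8 and 14.4 FPKM in si-SCR and at 36.0 and 32.8 FPKM in si-circVAMP3. Both si-circVAMP3 libraries were above every si-SCR library (log2 fold change 1.23 ± 0.06, limma adjusted p of 0.000128).

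In the pentose phosphate pathway, which branches from glycolysis to NADPH and ribose, 2 of 10 tested genes were called higher and 3 lower. RPIA, which forms ribose-5-phosphate, was at 19.8, 20.9 and 19.4 FPKM in si-SCR and at 10.4 and 10.7 FPKM in si-circVAMP3 (-0.89 ± 0.05, limma adjusted p of 0.000197).

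In the hypoxia response list 3 of 17 tested genes were called higher and 5 lower. HIF1A, the oxygen-regulated factor that can induce glycolytic genes, was at 26.4, 27.3 and 27.2 FPKM in si-SCR and at 15.8 and 16.3 FPKM in si-circVAMP3 (-0.73 ± 0.04, limma adjusted p of 0.000223). MXI1 was at 2.09, 1.74 and 1.92 FPKM in si-SCR and at 1.23 and 1.03 FPKM in si-circVAMP3 (-0.57 ± 0.10, limma adjusted p of 0.0075). VHL, which targets HIF1A for degradation, was at 38.9, 38.3 and 41.1 FPKM in si-SCR and at 28.6 and 31.0 FPKM in si-circVAMP3 (-0.40 ± 0.05, limma adjusted p of 0.00334). EPAS1, a relative of HIF1A, had a log2 fold change of -0.45 (-0.34 with a pseudocount of 1, -0.61 with 0.1 and -0.71 with voom), and P4HA1, a collagen prolyl hydroxylase, of -0.37. VEGFA, an angiogenic factor, had one of 0.35, so genes of this list were called in both directions.

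Among glycolysis neighbours 3 of 13 tested genes were called higher and 2 lower. BSG, the chaperone of lactate transporters, was at 110.1, 104.6 and 84.5 FPKM in si-SCR and at 133.4 and 137.6 FPKM in si-circVAMP3 (0.45 ± 0.11, limma adjusted p of 0.0223). PGM2L1, which makes glucose-1,6-bisphosphate, had a log2 fold change of 0.37. Among pyruvate and TCA neighbours 2 of 29 tested genes were called higher and 5 lower. The calls of BSG, PGM2L1, P4HA1 and VEGFA were lost without si-circVAMP3 replicate 1 and again without replicate 2, with log2 fold changes of 0.47 and 0.43 for BSG, 0.39 and 0.35 for PGM2L1, -0.36 and -0.38 for P4HA1, and 0.34 and 0.36 for VEGFA. Those of PGM2L1 and P4HA1 were also lost without si-SCR replicate 2 (0.36 and -0.36), and that of PGM2L1 without si-SCR replicate 1 (0.31). Those of MXI1 and EPAS1 were lost without si-circVAMP3 replicate 2 (-0.48 and -0.36).

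**Figure D5:**
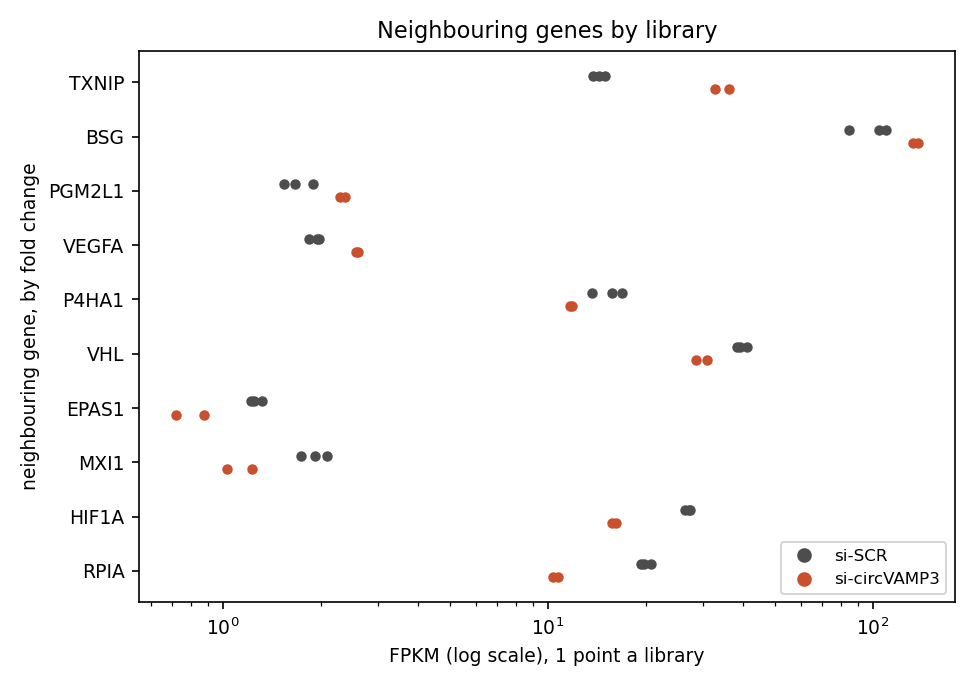
FPKM in each library, on a log axis, for 10 of the 12 called neighbouring genes with the largest absolute log2 fold change, 1 point a library. TXNIP is at 13.8 to 15.0 in si-SCR and 32.8 to 36.0 in si-circVAMP3, and RPIA at 19.4 to 20.9 and 10.4 to 10.7.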

How the data were processed

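RNA of RH4 cells was sequenced from stranded poly-A libraries, 3 si-SCR and 2 si-circVAMP3, described by the study as biological replicates. The authors trimmed reads with Trimmomatic, aligned them with STAR 2.5.2b to GRCh38, counted genes by strand with HTSeq under strict intersection, removed genes with few counts and deposited FPKM values made with edgeR. From these, log2(FPKM + 0.5) of the 12423 genes with at least 0.5 FPKM in at least 2 libraries was fitted with limma 3.58.1 in R 4.3.3 (eBayes with intensity trend, no block), with Benjamini-Hochberg adjustment and calls under 0.05. The members and lists were chosen with earlier results of these data known. Values in every library are given for MPC1, MPC2 and each called member. The same holds for the most abundant member of each step with several and the members nearest the threshold. Called neighbours were taken up to 12, by absolute log2 fold change. Of these, the text gives EPAS1, P4HA1, VEGFA and PGM2L1 by log2 fold change only. Fragment counts were worked back from ratios of FPKM, tested on simulated data, and served for depth and an added limma-voom fit. A gene whose 5 counts share a factor is recovered without it, so depths are lower bounds. Of 13822 gene IDs, 13783 matched a symbol. Transcripts and coordinates are from GENCODE 44 (GRCh38), which is not the annotation release the authors used. Tables used Python 3.11.15 and pandas 2.3.3. Alternatives covered filters, pseudocounts, scaling, the trend, a fold threshold, a replicate block and each library left out. Some items that the naming rule or the motif search gave are not reported here.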

Additional observations from a re-analysis of the deposited data

How the results depend on the processing

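Of the 12423 genes tested 3756 were called. With an absolute log2 fold change over 0.58 as well, 467 genes, 3 members and 3 neighbours were called. Leaving out each library gave 1254 to 4018 genes (1286 without si-circVAMP3 replicate 1, 1254 without replicate 2, 2203 without si-SCR replicate 2), 6 to 18 members and 9 to 28 neighbours. Where 1 si-circVAMP3 library is left, it is assumed to vary like si-SCR. Without the intensity trend 11 members were called. Whether shared replicate numbers pair the libraries is not stated. The correlation of deviations between libraries of the same number was -0.15 and -0.03. These values cannot decide it, since the deviations of 2 si-circVAMP3 libraries mirror each other. With the replicate block 3050 genes and 12 members were called. An added limma-voom fit, chosen after seeing the data, called 4145 genes and 19 members. Median scaling moved the calls from 1793 higher and 1963 lower to 2041 and 1725. Beside PFKFB3, members called only in other fits were MDH1 (voom, without si-SCR replicate 3), PDHX (without si-SCR replicate 3), PC (block, without si-SCR replicate 3) and SUCLA2 (voom). MPC2, CS, OGDH, HK1, TPI1 and IDH2 had an adjusted p under 0.05 and were lower in every fit run.

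VAMP3 stayed lower, from -0.31 to -0.27 with each library left out, and lost its call without si-circVAMP3 replicate 1 (-0.27). PDP1, at 0.00, ranged from -0.0401 (without si-circVAMP3 replicate 2) to 0.0474 with each library left out, was -0.0358 without si-SCR replicate 2, and was called in none of these. Differences in share with each library left out ranged, in percentage points, from -11.7 to -8.77 for HK1 and 8.77 to 11.7 for HK2, from -0.41 to 1.78 for PFKL, from -3.57 to 2.62 for ALDOA and -2.62 to 3.57 for ALDOC, so PFKL (-0.409 without si-SCR replicate 3, -0.0543 without si-circVAMP3 replicate 2) and the aldolases (2.62 and -2.62 without si-circVAMP3 replicate 1) changed sign. The cause was not tested.

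The median log2 fold change of genes with the motif, -0.08, was -0.0652 with no filter and -0.0850 and -0.0667 with pseudocounts 0.1 and 1. It was -0.0553 with median scaling, -0.0633 with quantile normalization and -0.0935 with voom. Over the 11064 tested protein-coding genes, it was -0.114 with a 3′ UTR match (1276 genes) and -0.0663 with a coding match (2409). The median of members with the motif, -0.25, was -0.21 with no filter and -0.30 with at least 1 FPKM in 3 libraries. It was -0.29 with the replicate block and -0.29 to -0.21 with each library left out. For the 4 members with a 3′ UTR match it was -0.37, and for the 9 with a coding match -0.30.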
